A study of Homo sapiens with 4 samples.

Results

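The genes that place peptides on MHC class I molecules were examined in chromatin accessibility maps of C4-2B and C4-2BER prostate cancer cells. The set held 9 of 19689 protein-coding genes, picked by name. It comprised the class I heavy chains HLA-B, HLA-C, HLA-E and HLA-F, the light chain B2M, the peptide transporter genes TAP1 and TAP2, and the transactivator genes NLRC5 and CIITA. Every peak interval in the body of these genes (GENCODE, hg38) or within 20 kb on either side was taken, which gave 55 of 149676 intervals in C4-2B and 46 of 118728 in C4-2BER.

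Accessibility was measured by ATAC-seq, an assay that tags open DNA by Tn5 transposition, in 2 libraries of each line. C4-2B is an adenocarcinoma cell line. C4-2BER is a neuroendocrine-like line that was obtained from C4-2B by continuous exposure to enzalutamide, an androgen receptor blocker, and was kept in the drug, so that the drug and the derived state cannot be told apart. Both lines grew in serum-supplemented RPMI medium, each is a single derived line, and the 2 libraries of each were merged before peaks were called, which leaves no spread between libraries to test against.

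Class I molecules carry peptides made by the proteasome to the cell surface, where CD8 T cells inspect them. The TAP transporter pumps the peptides into the endoplasmic reticulum, a heavy chain and beta-2-microglobulin assemble around them, and the complex travels to the membrane. NLRC5 is the main transactivator of class I genes and CIITA that of class II genes, both acting through a shared promoter module of X and Y boxes, and interferons raise class I genes through the interferon-stimulated response element (ISRE). Tumours of neuroendocrine type are known for low surface class I.

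The lists differed in size and depth. Median summit reads were 29 and 23, and the depth recovered from the peak values was 30.2 M and 25.2 M reads. Reads of C4-2BER were therefore multiplied by 1.20 before ratios were formed, and ratios are given as C4-2BER over C4-2B with a 95% interval that covers counting error only. A rank is the percentile of an interval by −log10 p within its own list, with the strongest interval near 100. Promoter peaks were present in both lists at all 5 luminal and all 5 neuroendocrine marker genes. Of these 10, the ratio interval lay below 1 at the luminal genes KLK3 (0.315, 0.221 to 0.440) and TMPRSS2 (0.701, 0.520 to 0.939), above 1 at the neuroendocrine gene ENO2 (1.56, 1.14 to 2.15), and across 1 at the others. Of 7 leukocyte marker genes, 6 had no promoter peak in either list and ITGAM had one in both. Of 4 fibroblast and endothelial genes, 3 had a peak in both lists, and PECAM1 had one in C4-2BER only. The ratio was 0.355 (0.222 to 0.551) at CDH5, 0.556 (0.335 to 0.900) at PDGFRB and 1.17 (0.928 to 1.47) at COL1A1.

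The intervals of both lists formed 58 distinct sites, of which 43 were shared, 12 were found in C4-2B only and 3 in C4-2BER only. Shared means an overlap of at least 1 bp. By summit, 19 sites lay in promoters (within 2000 bp of a start site of a protein-coding transcript), 22 between protein-coding genes, 13 in introns and 4 in exons. In C4-2B, 12 of the 55 intervals were line-only (21.8%, 95% Wilson interval 12.9 to 34.4), where the share over the whole list was 37.7%. In C4-2BER, 3 of 46 were line-only (6.52%, 95% Wilson interval 2.24 to 17.5), where the whole list gave 20.8%. Sites near these genes were thus shared more often than the lists as a whole, although no test was made of the difference. The comparison was not matched for the share of promoter sites. Distal intervals of the whole lists were line-only in 41.9% (C4-2B) and 22.4% (C4-2BER) of cases, more often than all intervals. Near these genes 11 distal sites and 1 promoter site were in C4-2B only, and 2 and 1 in C4-2BER only. Most line-only sites were also weak. The 12 in C4-2B held 9 to 49 reads (median 15.5) against a median of 44 at the shared sites of that list. The 3 in C4-2BER held 13 to 34 reads (median 16) against a median of 30. The strongest line-only site of each list was thus above the shared median.

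**Figure D1:**
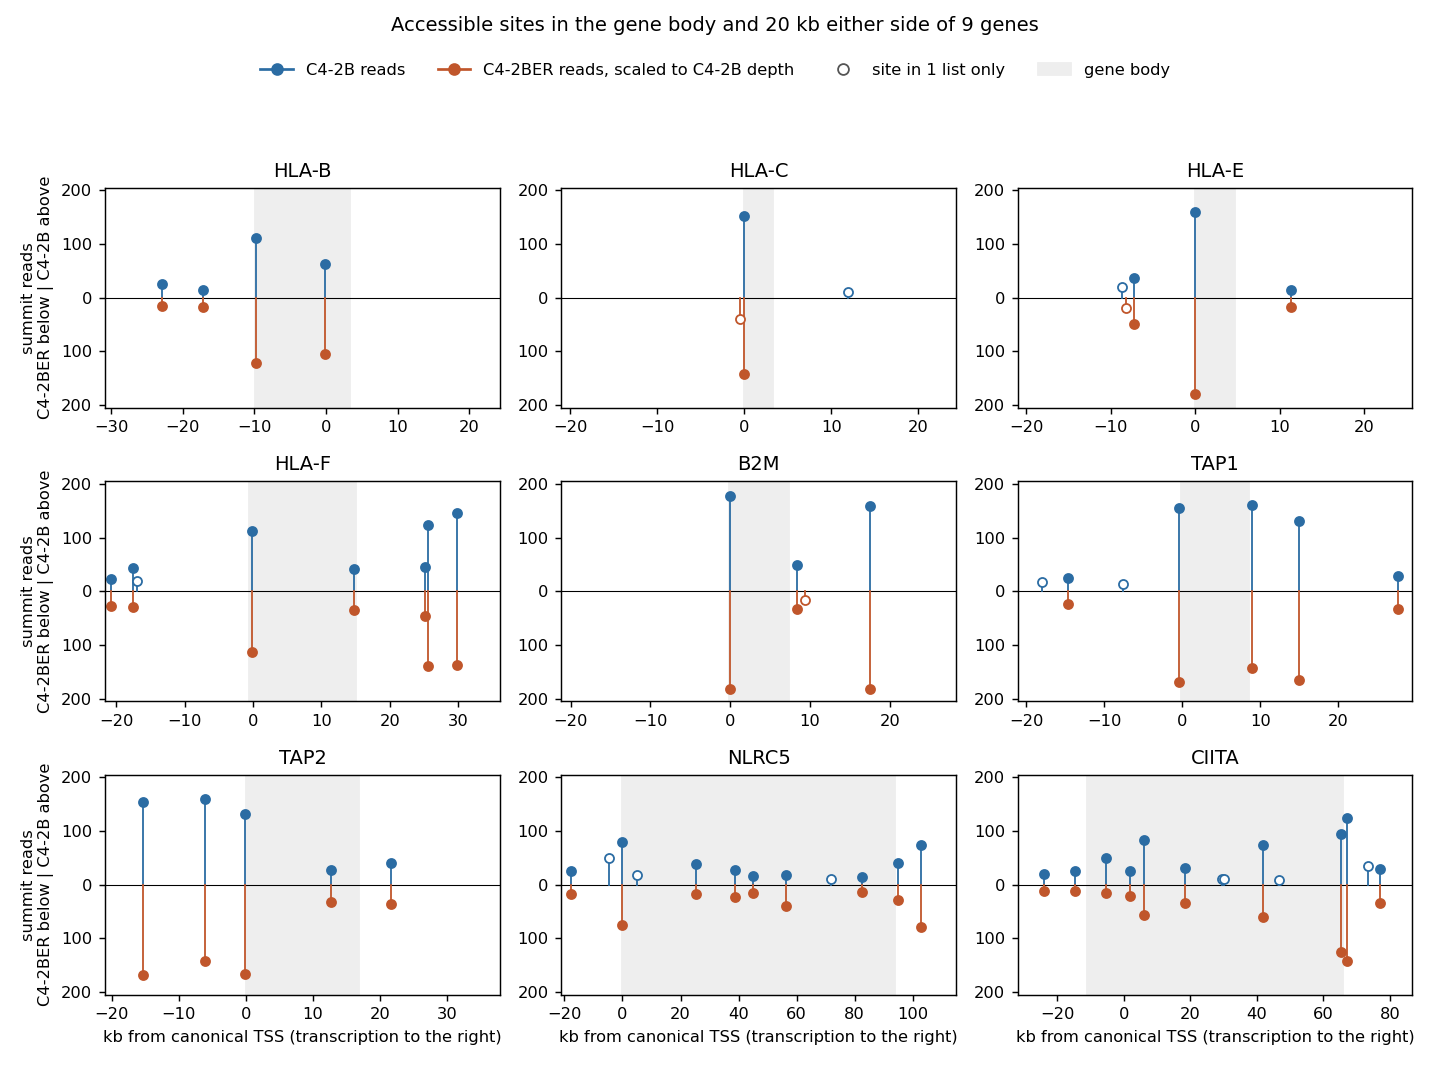
Sites in the window of each gene, plotted by distance in kb from the canonical transcription start site. Lines above 0 give summit reads in C4-2B and lines below 0 those in C4-2BER after scaling to the C4-2B depth. Open circles mark sites of 1 list only. Sites common to the TAP1 and TAP2 windows are drawn in both panels. In C4-2B the line at the canonical start is the tallest at HLA-C, HLA-E, B2M and NLRC5 and short at CIITA, and no open circle stands above 49 reads.

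A promoter peak was present in both lists for all 9 genes, and thus for 0 in C4-2B only and 0 in C4-2BER only. The call at CIITA did not hold in stricter lists, since its peak was in C4-2B only at a −log10 q of at least 5 and in neither list at 10. Among all protein-coding genes, 2.83% had a promoter peak in C4-2B only and 3.39% in C4-2BER only. The strongest promoter interval of each of the 9 genes, at any of its protein-coding start sites, had a median rank of 96.2 (C4-2B) and 95.7 (C4-2BER). The medians over the 15305 genes with a promoter peak in both lists were 92.0 and 93.0. From C4-2B to C4-2BER the rank rose for 2 of the 9 genes and fell for 7. Over the 15305 genes it rose for 9269 and fell for 6036. HLA-B is counted as a fall by its start at −9.85 kb, while at its canonical start the rank rose from 80.3 to 92.6. The median change was −0.52 points, against 0.588 over all genes. The sign of this small median was not stable, since it was 0.445 with lists of equal length and 0.222 with ranks by fold. The median ratio of reads was 1.03 for the 9 genes (log2 0.05, but −0.16 by the deposited fold) and 1.10 over all genes. None of the 9 was past 2-fold in either direction, where 1.39% of gene promoters were at least 2-fold lower and 3.06% at least 2-fold higher in C4-2BER.

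**Figure D2:**
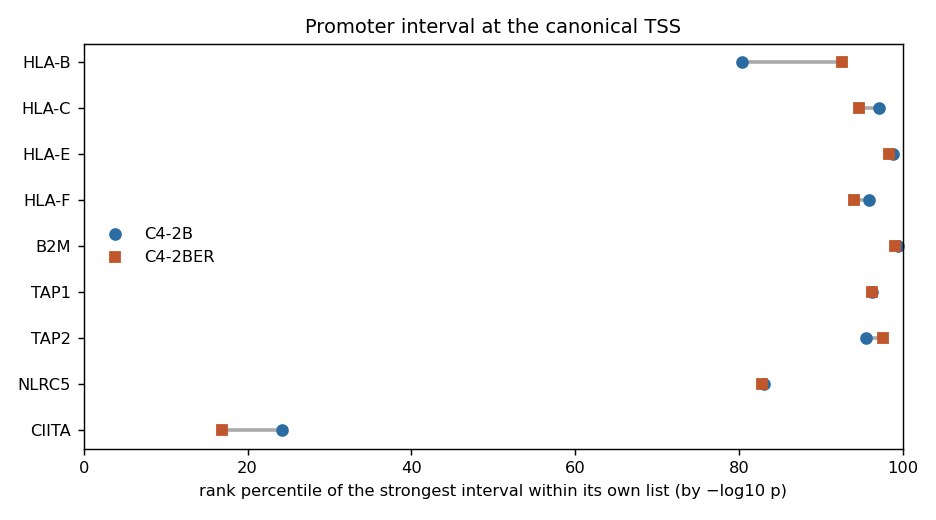
Rank percentile of the strongest interval within 2000 bp of the canonical start site, in C4-2B (circles) and C4-2BER (squares). For 7 genes both ranks lay above 82, HLA-B went from 80.3 to 92.6, and CIITA stood at 24.2 and 16.9.

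The class I heavy chains came first. HLA-B, HLA-C and HLA-F are shown with the 250 bases before the start site, because these promoters carry the interferon and transactivator elements and lie under the summits. The sequences are from RefSeq (GRCh38.p14), read 5′ to 3′ on the strand of the gene. Capitals mark matches, on either strand, to the ISRE core (TTCNNTTTC or TTTCNNTTC), kappa B (GGGNNTTCC), the X2 box (TGACGC, the variant TGATGC and the variant TGACGT) and the Y box (CCAAT). They span chr6:31357180-31357429 (HLA-B, minus strand), chr6:31272093-31272342 (HLA-C, minus strand) and chr6:29723184-29723433 (HLA-F, plus strand).
HLA-B: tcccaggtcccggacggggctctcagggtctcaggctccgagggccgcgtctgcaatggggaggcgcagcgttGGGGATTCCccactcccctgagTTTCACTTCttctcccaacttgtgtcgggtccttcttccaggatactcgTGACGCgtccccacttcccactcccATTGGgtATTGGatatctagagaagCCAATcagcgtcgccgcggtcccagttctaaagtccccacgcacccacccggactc
HLA-C: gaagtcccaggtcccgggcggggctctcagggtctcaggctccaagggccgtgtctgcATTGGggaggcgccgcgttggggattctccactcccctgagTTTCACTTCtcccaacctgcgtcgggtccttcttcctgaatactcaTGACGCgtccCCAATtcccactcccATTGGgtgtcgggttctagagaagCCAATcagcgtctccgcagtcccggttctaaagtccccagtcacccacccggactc
HLA-F: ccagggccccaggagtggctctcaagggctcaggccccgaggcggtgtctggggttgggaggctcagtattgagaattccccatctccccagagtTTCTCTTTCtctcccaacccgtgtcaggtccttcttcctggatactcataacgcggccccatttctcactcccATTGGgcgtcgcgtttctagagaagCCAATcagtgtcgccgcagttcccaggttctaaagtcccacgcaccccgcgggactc
The HLA-B and HLA-C promoters were identical at 226 of 254 aligned columns (89.0%), HLA-B and HLA-F at 79.8%, and HLA-C and HLA-F at 78.2%. With the start base counted as 0, an ISRE core began at −155 in HLA-B and HLA-F and at −151 in HLA-C. The matches in HLA-B and HLA-C rest on TTTCNNTTC alone. That spelling was added after these sequences had been seen, so both matches were fixed by the choice. An X2 box match began at −106 in HLA-B and −105 in HLA-C, and HLA-F had none to this spelling. The kappa B spelling was found in HLA-B alone of these 3. That spelling has 9 letters, and longer forms of kappa B were not searched. A promoter without a match may therefore still hold such a form. Over 35116 RefSeq promoter windows of 300 bases, 14.5% held the ISRE core (8.11% with TTCNNTTTC alone), 6.58% kappa B, 23.7% the X2 box and 34.6% the Y box.

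HLA-B (ENSG00000234745, chromosome 6, 31353872 to 31367067, minus strand) is a classical heavy chain that presents peptides to CD8 T cells. At its canonical start site the interval lay at chr6:31356579-31357450 in C4-2B and chr6:31356477-31357437 in C4-2BER. The summit held 63 reads in C4-2B against 87 in C4-2BER, or 104 after scaling, a ratio of 1.65 (95% interval 1.18 to 2.32). This was the highest ratio among the promoter sites near the 9 genes, and the only one of them whose interval lay above 1. The deposited fold moved the same way, from 10.8 to 12.5. The local background rose as well, from 4.94 to 6.04 reads per 200 bp before any scaling for depth. How far the ratio goes with the background was not tested. A second HLA-B site lay at −9.85 kb, at the start of longer annotated transcripts and inside the pseudogene DHFRP2. It held 111 reads in C4-2B against 101 in C4-2BER, a ratio of 1.09 (0.823 to 1.44). The intervals of both ratios overlap, and the difference between the starts was not tested. Further upstream, the site at −22.9 kb held 25 and 13 reads and the site at −17.2 kb held 15 and 14, both with an interval across 1.

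HLA-C (ENSG00000204525, chromosome 6, 31268749 to 31272130, minus strand) presents peptides and is the main classical ligand of killer cell receptors. Its promoter interval was among the widest of the set, at 1361 bp in C4-2B and 1357 bp in C4-2BER. The summit held 152 and 119 reads, a ratio of 0.937 (0.731 to 1.20), with ranks of 97.1 and 94.7. In C4-2BER alone a small interval of 210 bp, chr6:31272507-31272716, stood upstream of the start, its summit at −521 bp, with 34 reads and a rank of 30.2. It lay 124 bp beyond the edge of the C4-2B promoter interval. The remaining HLA-C site, 11.9 kb downstream of the start, was in C4-2B only, with 10 reads and a rank of 3.17.

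HLA-E (ENSG00000204592, chromosome 6, 30489509 to 30494194, plus strand) shows leader peptides of other class I chains to NK cells. Its promoter held 160 reads in C4-2B against 150 in C4-2BER, a ratio of 1.12 (0.892 to 1.41), and ranked at 98.8 and 98.3. Upstream, at −7.26 kb, a shared site held 37 and 41 reads with ranks of 61.6 and 74.4. Next to it each list had a small site of its own, at −8.70 kb in C4-2B (20 reads) and at −8.16 kb in C4-2BER (16 reads). These lay 322 and 237 bp from the nearest interval of the other list. The site 11.3 kb downstream held 15 and 14 reads.

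HLA-F (ENSG00000204642, chromosome 6, 29722775 to 29738528, plus strand) is a nonclassical heavy chain that is mostly kept inside the cell. Its promoter held 113 reads in C4-2B against 95 in C4-2BER, a ratio of 1.01 (0.758 to 1.33). Here the lines could not be told apart by reads. The window was the richest of the heavy chains, with 8 sites. Of these, 3 stood between 25.1 and 29.8 kb beyond the start with 45, 124 and 146 reads in C4-2B against 38, 117 and 115 in C4-2BER. Their local background of 14.4 to 17.6 reads per 200 bp was several-fold above the floor of the lists, 2.24 and 1.87. Upstream, the site at −17.6 kb held 44 and 24 reads (ratio 0.653, 0.380 to 1.10), and the site at −17.0 kb was in C4-2B only, with 19 reads.

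B2M (ENSG00000166710, chromosome 15, 44711358 to 44718851, plus strand) encodes beta-2-microglobulin, the light chain without which no class I molecule is stable at the surface. Its promoter, chr15:44711267-44711516 on the plus strand, is shown in the same way, since it was the strongest promoter of the 9 genes in both lists.
B2M: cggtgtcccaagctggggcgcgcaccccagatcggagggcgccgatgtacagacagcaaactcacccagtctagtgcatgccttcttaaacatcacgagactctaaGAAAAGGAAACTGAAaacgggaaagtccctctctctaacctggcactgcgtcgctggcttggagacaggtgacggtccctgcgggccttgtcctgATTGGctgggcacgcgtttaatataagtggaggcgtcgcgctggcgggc
A pair of overlapping ISRE cores ran from −144 to −130, and a Y box match began at −49. The interval at chr15:44711003-44712268 held 177 reads in C4-2B, and that at chr15:44710974-44712215 held 153 in C4-2BER, a ratio of 1.03 (0.828 to 1.29). The ranks were 99.4 and 99.0. Downstream, the site 8.34 kb from the start held 49 and 27 reads (ratio 0.659, 0.396 to 1.08), with a rank that went from 75.9 to 58.0. A C4-2BER-only site of 13 reads lay at 9.44 kb. The promoter of the neighbour TRIM69, in the same window, held 159 and 153 reads.

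Over the 4 heavy chains and B2M, 18 sites were shared, of which 6 had a ratio below 1 and 12 above 1, with a median of 1.06. The median over all 91160 shared sites of the lists was 0.900. This comparison was not matched for the share of promoter sites, and over all genes the promoter median was 1.10. Of the 18 sites, 11 were distal, with 5 below 1 (45.5%) and a median of 1.01. All distal shared sites gave 67.1% below 1 and a median of 0.828. The difference was not tested.

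TAP1 and TAP2 encode the subunits of the peptide transporter and lie side by side in the class II region of chromosome 6, among the immunoproteasome genes. Their promoters, chr6:32853705-32853954 and chr6:32838740-32838989, both on the minus strand, are shown because each carries overlapping ISRE cores. In TAP2 the overlap depends on TTTCNNTTC, the spelling added later, and TTCNNTTTC alone gives 1 core. RefSeq has a further TAP1 window, chr6:32852712-32853011, which held 0 ISRE cores and 1 match to GAS (TTCNNNGAA), and which is not printed or plotted.
TAP1: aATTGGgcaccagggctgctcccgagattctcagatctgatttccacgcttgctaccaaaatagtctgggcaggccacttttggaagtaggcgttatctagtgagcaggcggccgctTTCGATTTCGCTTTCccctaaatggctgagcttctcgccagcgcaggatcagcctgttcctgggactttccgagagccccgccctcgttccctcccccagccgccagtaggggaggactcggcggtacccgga
TAP2: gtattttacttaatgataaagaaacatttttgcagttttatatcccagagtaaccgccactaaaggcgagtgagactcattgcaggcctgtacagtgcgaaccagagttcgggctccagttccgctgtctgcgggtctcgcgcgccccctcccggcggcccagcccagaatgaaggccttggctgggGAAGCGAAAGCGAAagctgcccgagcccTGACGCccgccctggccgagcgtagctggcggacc
The ISRE cores ran from −133 to −119 in TAP1 and from −63 to −50 in TAP2, and TAP2 had an X2 box match at −35. The printed TAP1 promoter also holds gggactttcc, which is longer than the kappa B spelling and was left unmarked. The printed B2M promoter holds the same letters on the other strand, also unmarked. With TTCNNTTTC alone, the spelling chosen at the outset, 4 of the 6 genes with a RefSeq window had a match (8.11% of all windows). With TTTCNNTTC, which was added after the HLA-B and HLA-C sequences had been seen, all 6 had one, TAP1 in 1 of its 2 windows.

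**Figure D3:**
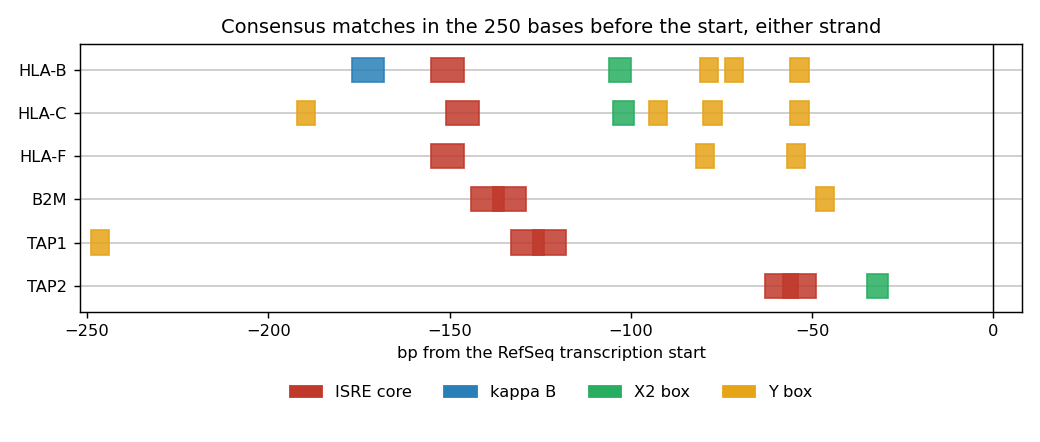
Matches to the ISRE core, kappa B, X2 box and Y box in the 250 bases before the RefSeq start of 6 genes, on either strand, by distance in bp. Each gene has at least 1 ISRE core, and the 3 HLA genes have it between −155 and −143. Those of HLA-B and HLA-C match only TTTCNNTTC, the spelling added after their sequences had been seen. In TAP2, 1 of the 2 overlapping cores also matches only that spelling. Kappa B marks cover the 9-letter spelling GGGNNTTCC only, so the longer gggactttcc of TAP1 and B2M is not drawn.

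TAP1 (ENSG00000168394, chromosome 6, 32845209 to 32853816) shares its start region with PSMB9, an immunoproteasome subunit gene that runs the other way. The common interval, 1801 bp wide in C4-2B and 1571 bp in C4-2BER, held 155 and 141 reads, a ratio of 1.09 (0.860 to 1.38). Its rank was 96.2 in both lists. A second interval inside this block, at the promoters of PSMB8 and PSMB9, held 160 and 119 reads, a ratio of 0.890 (0.696 to 1.14). That site had the highest rank of all near the 9 genes in C4-2B, 99.7, and ranked at 97.5 in C4-2BER.

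TAP2 (ENSG00000204267, chromosome 6, 32821833 to 32838739) had 131 reads at its promoter in C4-2B and 139 in C4-2BER, a ratio of 1.27 (0.993 to 1.62). Its rank went from 95.5 to 97.5, and the interval of the ratio just reached 1. A site in exon 12 held 28 and 27 reads, and the promoter of HLA-DOB, a class II gene in the same window, 40 and 30. The TAP1 and TAP2 windows together held 8 C4-2B intervals, of which 6 were shared, and 6 C4-2BER intervals, all shared. The C4-2B-only sites, at −7.62 and −18.0 kb from the TAP1 start, held 13 and 18 reads.

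NLRC5 (ENSG00000140853, chromosome 16, 56989485 to 57083531, plus strand) had a promoter of intermediate strength. Its summit, within 5 bases of the canonical start in both lists, held 80 reads in C4-2B against 63 in C4-2BER, a ratio of 0.942 (0.666 to 1.33). The ranks, 83.1 and 82.8, were almost the same. A shared site at an internal start, in exon 8, held 27 and 19 reads.

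Away from the promoter, NLRC5 had sites that moved in opposite directions. In intron 1, 25.3 kb from the start, the site at chr16:57014652-57015004 held 39 reads in C4-2B against 14 in C4-2BER, a ratio of 0.430 (0.215 to 0.809), and its rank went from 72.1 to 31.9. In intron 21, 56.4 kb from the start, a site held 19 and 33 reads, a ratio of 2.08 (1.15 to 3.87), and its rank went from 33.4 to 69.7. It was the only shared site near the 9 genes that was at least 2-fold higher in C4-2BER, where 2.65% of all shared sites were. The NLRC5 window also held 3 C4-2B-only sites. The strongest line-only site of the whole set was one of them, at −4.70 kb from the start, chr16:56984689-56985014, with 49 reads, a −log10 q of 22.6 and a rank of 61.9. No C4-2BER interval lay within 4307 bp of it. The others, in introns 1 and 30, held 19 and 11 reads.

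CIITA (ENSG00000179583, chromosome 16, 10866222 to 10943021, plus strand) stood apart from the other 8 genes in the strength of its promoter. Its shared promoter interval lay 1.74 kb downstream of the canonical start by the C4-2B summit, in intron 1 of the canonical transcript. No interval covered the canonical start. The summit held 25 reads in C4-2B against 17 in C4-2BER, a ratio of 0.814 (0.412 to 1.57), and ranked at 24.2 and 16.9. Within 100 bp of that summit the sequence held 3 ISRE core matches in either list, with both spellings counted. A further C4-2B interval near an internal start, in exon 20, held 9 reads and had the lowest rank of the set, 0.600.

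Of the 7 shared distal sites of CIITA, 5 had a ratio below 1 (71.4%), where 67.1% of all distal shared sites did. The site at −5.26 kb, in an intron of longer transcripts, held 49 reads in C4-2B against 13 in C4-2BER, a ratio of 0.317 (0.158 to 0.594), and its rank went from 70.8 to 12.4. The site at −14.6 kb held 26 and 9 reads, a ratio of 0.414 (0.171 to 0.912), and went from rank 54.1 to 4.82. In intron 1, at 6.06 kb, the strongest distal CIITA site held 83 and 47 reads, a ratio of 0.678 (0.463 to 0.980). These 3 sites and the intron 1 site of NLRC5 were the 4 shared sites near the 9 genes whose interval lay below 1. Of all shared sites, 21.4% had an interval below 1 and 5.33% above 1, and for the 43 near these genes the counts were 4 and 2. At −24.1 kb the reads were 20 and 9 (0.538, 0.216 to 1.24), and in intron 16 they were 75 and 50 (0.798, 0.546 to 1.16). The other 2 shared distal sites went the other way, with 31 and 28 reads at 18.4 kb (1.08, 0.625 to 1.86) and 29 and 28 at 76.9 kb (1.16, 0.662 to 2.01). At the neighbour genes, the DEXI promoter held 95 and 104 reads and the CLEC16A promoter 124 and 118. Of the 4 C4-2B-only sites, the one in an intron of CLEC16A held 35 reads and the pair in exon 11 held 10 each.

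The 4 distal sites that were past 2-fold are shown as the 151 bases around the C4-2B summit (hg38, plus strand), so that their sequence can be set beside the reads. Capitals mark matches to any motif searched, which besides those above were GAS (TTCNNNGAA), AP-1 (TGACTCA or TGAGTCA) and forkhead (TGTTTAC or TGTTTGC). They lie at chr16:57014749-57014899 and chr16:57045920-57046070 in NLRC5 and at chr16:10862564-10862714 and chr16:10871866-10872016 upstream of the canonical start of CIITA.
NLRC5 intron 1: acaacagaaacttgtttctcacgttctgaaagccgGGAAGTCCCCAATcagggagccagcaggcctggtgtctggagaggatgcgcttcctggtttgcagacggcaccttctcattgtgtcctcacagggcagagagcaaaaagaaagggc
NLRC5 intron 21: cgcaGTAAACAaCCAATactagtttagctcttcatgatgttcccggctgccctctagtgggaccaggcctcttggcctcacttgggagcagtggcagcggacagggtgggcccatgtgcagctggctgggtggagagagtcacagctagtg
CIITA −14.6 kb: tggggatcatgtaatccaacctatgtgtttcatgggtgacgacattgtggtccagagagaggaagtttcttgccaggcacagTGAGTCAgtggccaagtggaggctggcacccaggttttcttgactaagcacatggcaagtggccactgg
CIITA −5.26 kb: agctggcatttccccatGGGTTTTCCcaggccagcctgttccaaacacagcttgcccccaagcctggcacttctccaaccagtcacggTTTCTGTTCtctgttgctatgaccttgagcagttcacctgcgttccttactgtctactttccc
The intron 1 site of NLRC5 held a kappa B match that runs into a Y box. The intron 21 site, which was higher in C4-2BER, held a forkhead and a Y box match. The CIITA site at −14.6 kb held an AP-1 match, and the site at −5.26 kb a kappa B and an ISRE core match. That ISRE core matches only TTTCNNTTC, the spelling added after the HLA-B and HLA-C sequences had been seen.

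The distal sites of NLRC5 and CIITA were then pooled. This pool was formed after their values had been seen and is a description only. They numbered 19, of which 13 were shared, 6 were in C4-2B only and 0 in C4-2BER only. Of the 13, 10 had a ratio below 1 (76.9%), 3 were at least 2-fold lower in C4-2BER (23.1%), and the median was 0.678. Over all 72310 distal shared sites of the lists, 67.1% had a ratio below 1 and the median was 0.828. Of all 39 distal sites near the 9 genes, 11 were in C4-2B only and 2 in C4-2BER only beside 26 shared ones, where 41.9% of all distal C4-2B intervals and 22.4% of all distal C4-2BER intervals were line-only. The other 7 genes had 20 distal sites, with 13 shared, 5 in C4-2B only and 2 in C4-2BER only, and a median ratio of 1.01. Among all 43 shared sites, 3 were at least 2-fold lower in C4-2BER, against 13.7% of all shared sites, and these 3 were distal, against 16.6% of distal ones. Over the 9 genes these 3 sites made 6.98% of the shared sites and 11.5% of the distal ones, below the shares of the lists as a whole. In the NLRC5 and CIITA pool they were 3 of 13. That share rests on few sites, picked after their values had been seen, and is not read as a result. Of the same 13, 1 was at least 2-fold higher, where 2.65% of all shared sites were. In C4-2B only were 6 of the 19 pooled sites, where 41.9% of distal C4-2B intervals were line-only. The accessibility of a site is an average over cells, so that fewer cells with an open site and less opening in each cell cannot be told apart.

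**Figure D4:**
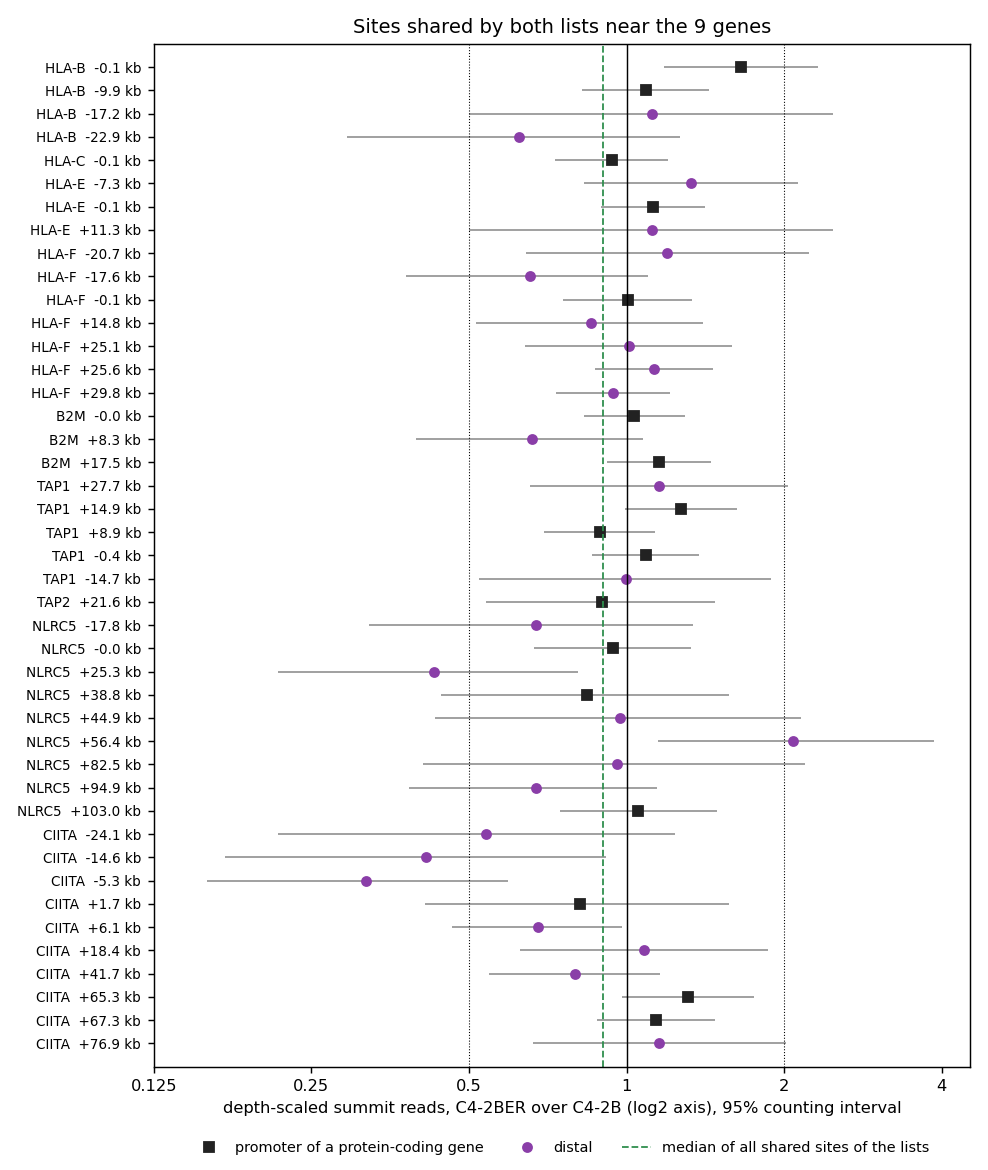
Depth-scaled summit reads in C4-2BER over C4-2B at the 43 shared sites, on a log2 axis, with 95% counting intervals. Labels give the gene and the distance of the site from its canonical start; squares are promoters of any protein-coding gene and circles are distal sites. Dotted lines mark 2-fold and the dashed line the median of all shared sites, 0.900. The points farthest to the left are CIITA at −5.26 and −14.6 kb and NLRC5 at 25.3 kb.

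Motifs were also counted within 100 bp of the summits. The ISRE core was matched in 13 of the 55 C4-2B intervals (23.6%) and 12 of the 46 C4-2BER intervals (26.1%), where all intervals gave 9.34% and 9.21%. With TTCNNTTTC alone these were 9 and 8 intervals, where all intervals gave 5.01% and 5.02%. The X2 box was in 12 and 13 intervals (21.8% and 28.3%, all intervals 13.7% and 14.2%). The forkhead spelling was in 8 and 4 (14.5% and 8.70%, all intervals 16.9% and 13.1%), AP-1 in 3 and 1 (all intervals 7.38% and 6.70%), GAS in 2 and 2 (all intervals 5.81% and 5.14%), and kappa B in 4 and 3 (all intervals 2.87% and 3.03%). These are matches of letters, and neighbouring HLA promoters share descent, so the intervals are not independent. The kappa B counts cover the 9-letter spelling only and leave out longer forms.

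Other genes of the pathway were taken from a list of 39. A promoter peak was found in both lists for 38 of them, in C4-2BER only for 1 and in neither for 0. None of the 38 was at least 2-fold lower in C4-2BER and 1 was at least 2-fold higher, with a median ratio of 1.05 and a median rank change of −0.816 (14 rose, 24 fell). Over all genes the median ratio was 1.10 and the median rank change 0.588, with 9269 genes that rose and 6036 that fell, and the shares past 2-fold or in 1 list are those given above. The strongest promoter interval of each list was compared, which need not be the same site. The gene with a peak in C4-2BER only was HLA-DQA1, a class II chain, with 13 reads and a rank of 26.6.

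The gene past 2-fold was CD74, the invariant chain of class II, whose promoter held 62 reads in C4-2B against 126 in C4-2BER, a ratio of 2.43 (1.78 to 3.35). The intervals overlap but their summits lay 804 bp apart, so the ratio compares different summits. Its rank rose from 64.9 to 95.5. The next largest rises were at TAPBP (tapasin, which bridges TAP to class I; 77.6 to 86.0, at different sites), IFNAR2 (a chain of the type I interferon receptor; 85.9 to 92.7) and HLA-DRA (the class II alpha chain; 30.9 to 36.7). The largest falls were at ERAP2, a peptide trimming enzyme (71.5 to 52.1, at different sites), the class II chain HLA-DPA1 (75.8 to 62.9), the class II loading factor HLA-DMA (98.3 to 94.3) and the stress ligand MICB (83.0 to 80.2). The 5 immunoproteasome genes all had peaks in both lists, with a median ratio of 1.08. PSMB8 and PSMB9 share the interval described beside TAP1, which is counted for both. The canonical start of PSMB9 lies instead in the interval common with TAP1. Peaks in both lists were also found for all 7 of peptide loading and trimming (1.04), all 10 regulators (1.05), all 7 of interferon receptor signalling (1.17) and both stress ligands (1.01). The 7 class II genes with peaks in both had a median of 0.941, and all these medians but that of interferon receptor signalling were below the 1.10 of all genes.

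Reads map less surely in the HLA region than elsewhere, because heavy chain genes resemble each other and hg38 carries alternate versions of the region. The share of 50-base words, the read length, that recur elsewhere on the primary chromosomes was 3.66% in the HLA-B window, 10.7% for HLA-C, 12.9% for HLA-E and 5.57% for HLA-F. It was 3.88% for B2M, 1.50% for TAP1, 1.27% for TAP2, 3.54% for NLRC5 and 3.31% for CIITA. Within the intervals themselves the median share was 0 in both lists, on chromosome 6 as on chromosomes 15 and 16. The highest shares on chromosome 6 were 21.8% (C4-2B) and 25.7% (C4-2BER), at the HLA-B site at −17.2 kb. At the HLA-E site at −7.26 kb they were 16.4% and 14.1%. On chromosomes 15 and 16 the highest were 21.6% and 14.4%. Only exact repeats were counted, so words that differ by a base are not included. Any repeated word was found in 7 of 25 chromosome 6 intervals of C4-2B and in 4 of 29 on chromosomes 15 and 16, and the interval at the HLA-B canonical start had 0.122% repeated words.

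Alternate contigs are another matter. The reference used here has 261 of them, 16 for chromosome 6. Of the words in the 7 windows on chromosomes 6 and 15, from 76.3% (HLA-B and HLA-C) to 99.8% (HLA-E) were also on an alternate contig, against 1.12% for NLRC5 and 1.50% for CIITA. Reads from such words could fall below a mapping quality of 10 if the alignment had included these contigs. Whether it did is not given in the sources used here. The promoters of B2M, HLA-E, TAP1 and TAP2, where 91.8% to 100% of interval words were on alternate contigs, held 131 to 177 reads in C4-2B. Reads that carry HLA alleles unlike hg38 can also be lost, and how many were lost was not measured here.

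**Figure D5:**
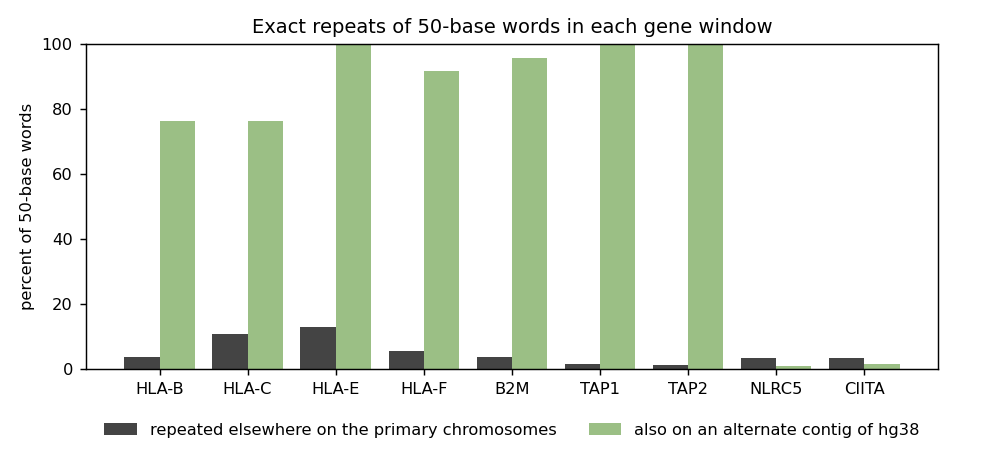
Share of 50-base words in each gene window that recur on the primary chromosomes (dark bars) or occur on an alternate contig of hg38 (light bars), in percent. Light bars reach 76.3% or more for the 7 genes on chromosomes 6 and 15 and at most 1.50% for NLRC5 and CIITA.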

How the data were processed

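ATAC-seq was carried out on 4 libraries, 2 of C4-2B and 2 of C4-2BER. The authors trimmed paired reads of 50 bases, aligned them to hg38 with Bowtie2, kept a mapping quality of at least 10, removed duplicates with Picard and merged replicates. Peaks were called with macs2 (no model, a shift printed as 100, extension to 200 bp). The submitters' notes also name FastQC and bedtools 2.17, and for ATAC-seq the versions of Bowtie2 and macs2 are not given in the sources used here. The 2 deposited lists hold 1 row per summit, and 0 columns of single libraries were left unused.

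The deposited fold is a ratio of summit reads to local background, with 1 added to both. The −log10 p-values and −log10 q-values are those the authors' caller gave. The deposited score was not used. The remaining deposited column, of another kind, is the summit offset. Each interval was counted with its summit of highest −log10 p. Whole reads were recovered from the fold and the Poisson −log10 p, with a largest error of 0.000259. The background floor times a genome size of 2700000000 bp gave the depth, and the ratio of depths does not depend on that size. No summit had under 8 (C4-2B) or 7 (C4-2BER) reads, and weaker sites are absent. Intervals and floors cover counting error only.

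Genes and start sites were those of GENCODE release 44. Ratios carry exact (Clopper-Pearson) 95% intervals from the conditional binomial, and shares Wilson 95% intervals. No test between lines was possible and no p-value is given. A ratio of 2 in either direction was counted as past 2-fold. Promoter sequences of 6 of the 9 genes were matched in RefSeq (GRCh38.p14). Those of HLA-E, NLRC5 and CIITA are not shown. Repeated words were counted exactly on both strands. Python 3.11.15, numpy 2.4.6, scipy 1.17.1, pandas 2.3.3, pysam 0.24.0 and biopython 1.88 were used, and read recovery, overlaps and word counts were tested on simulated data.

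All 9 genes are named. Of the 39 pathway genes, those with a promoter peak in 1 list and the 4 with the largest rank change in each direction are named. The rule for members uses no measured value, but members and lists were chosen with earlier results of these data known. Alternatives were stricter lists, equal list lengths, equal depth, other windows, overlap rules, start sites, ranking and scaling. Leaving out a library was not possible.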

Additional observations from a re-analysis of the deposited data

How the results depend on the processing

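No paired analysis was possible because each deposited list pools both libraries of a line, and neither leaving out a library nor a replicate block could be run for the same reason. Scaling C4-2B to the depth of C4-2BER left out 258 intervals of the whole C4-2B list and 0 near the 9 genes, so that its 7 values could not change. Over the other 12 settings, 44 recomputed values stayed within 1.5 times the count or inside the counting interval and 9 did not. With a −log10 q of at least 5, CIITA had a promoter peak in C4-2B only (1 gene, 8 genes in both). At 10 its peak was in neither list, and 30 C4-2BER intervals were left, by construction. A flank of 50 kb gave 92 and 82 intervals, also by construction. With equal numbers of top intervals, which shortens the C4-2B list, 89.4% of C4-2B intervals were shared and the median promoter rank change was 0.445. Ranked by fold it was 0.222, so the sign of that small median depends on the ranking. Counting gaps of up to 500 bp as overlap made 97.8% of C4-2BER intervals shared. With the deposited fold in place of depth-scaled reads the median promoter log2 ratio was −0.16 in place of 0.05. The cause was not tested. Presence of a promoter peak in both lists ranged from 8 to 9 genes. The added ISRE spelling, chosen after seeing the data, raised the matched C4-2B intervals from 9 to 13. Sites of under 20 reads carry wide intervals, and a site missing from a list may lie below its threshold.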
